A study of Mus musculus with 15 samples.

Results

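The genes described here are the Ras genes, the Ras GTPase-activating proteins (RasGAPs), the exchange factor and the adaptor that set how much Ras is bound to GTP in the mouse pancreas. The members are Hras, Nras, Rasa1, Rasa2, Rasa3, Rasal2, Nf1, Sos1 and Grb2, a list given by name, and 9 of the 9 were counted in all 15 RNA sequencing libraries. Each library held RNA pooled from 3 C57BL/6 mice. Transgenic mice expressed HPK1, a kinase encoded by Map4k1, or M46, its kinase-dead form, after a tamoxifen-inducible Cre recombinase driven by the acinar elastase I promoter had removed a stop cassette.

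Ras proteins are molecular switches that signal when they hold GTP. RasGAPs speed the hydrolysis of that GTP and so turn Ras off, whereas exchange factors load it with GTP. Grb2 carries the exchange factor Sos1 to activated receptors at the membrane, and a change in any of these transcripts is a change in RNA and not in Ras activity.

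Mice expressing M46 (MC) were compared with Cre control mice at 2 months of age, with 3 libraries on each side, and both groups had been given cerulein, which inflames the pancreas. Mice labelled as carrying HPK1 (HC) were compared with wild-type mice at 4 months, with 3 and 2 libraries, also after cerulein. The mice labelled Ras with Cre (KC, 15 months, 2 libraries) were compared with mice labelled M46, Ras and Cre (KMC, 9 months, 2 libraries). The labels of KC and KMC give pancreas as the tissue and do not say which Ras gene was altered, and the paper of the study describes these libraries as samples of pancreatic ductal adenocarcinoma. By the labels, libraries of MC and its controls were made with a standard Illumina protocol and all others with a stranded mRNA kit (KAPA). Ages and kits are taken from the labels, and the methods of the paper differ from them for some groups.

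Several libraries stood apart or had Map4k1 values unlike those their labels name, and the member results were read beside them. Map4k1, which encodes HPK1, had counts-per-million values (CPM) of 7.33, 5.05 and 7.93 in the libraries labelled HC and 15.4 and 11.5 CPM in their controls. Every library labelled HC was thus lower than both of its controls in RNA counted under Map4k1, although the label names an HPK1 transgene. Whether reads of the transgenes were counted under Map4k1 is not given with the files. In MC, Map4k1 had 8.32, 6.79 and 7.51 CPM against 3.8, 4.14 and 2.34 CPM, and in KMC 5.92 and 11.4 CPM against 0.545 and 1.55 CPM. Both M46 groups were above all of their controls. The log2 fold changes of Map4k1 were 1.13 in MC, -0.99 in HC and 2.99 in KMC, and the medians of 4 leukocyte genes, given in full with Rasa3 below, were 1.13, -0.88 and 2.83. The part of leukocytes in the values of Map4k1 was not tested. HC replicate 3 held RNA of male mice, with 48.4 CPM of the Y-linked gene Ddx3y, whereas the other 4 libraries of that experiment had 0 counts of Ddx3y and 579 to 929 CPM of Xist. KC libraries were male (Ddx3y 10.7 and 17.3 CPM) and KMC libraries female (Xist 406 and 306 CPM), so that genotype, sex and age cannot be told apart in that comparison. The table of the M46 experiment held neither Xist nor Ddx3y, and the sex of its mice could not be read.

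The make-up of the tissue differed between libraries as well. Transcripts of 21 acinar genes, Ctrb1 the most abundant, took 42.4, 34.3 and 33.9 percent of all counts in MC and 47.1, 39 and 51.6 percent in its controls. They took 63.3 and 55.4 percent in KC and 44.6 and 22.8 percent in KMC, but 6.11, 8.1 and 5.24 percent in HC and 7.9 and 6.11 percent in its controls. KMC was below KC in both libraries, and the other pairs of groups overlapped. Transcripts of 8 ductal genes took 0.026 and 0.0349 percent of all counts in KC and 0.077 and 0.19 percent in KMC. They took 0.139, 0.216 and 0.0814 percent in the MC controls and 0.492 and 0.541 percent in the HC controls. How much of the KC and KMC libraries came from carcinoma was not tested. CPM is given here after TMM scaling, which sets the median gene near 0 change in each table. Levels of Rasa3 or any other member are compared between tables as a description, because the experiment, the library kit and the age changed together with the genotype and differences between tables were not tested.

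Levels of the members were compared per kilobase of exon (CPM per kb), since their transcripts differ in length. Grb2 had the highest mean in all 6 groups, 14.8 ± 1.36 CPM per kb (mean ± SD) in the MC controls and 35.6 ± 2.03 CPM per kb in the HC controls. In the MC controls Hras (8.2 ± 0.333) and Nras (6.48 ± 1.21) came next, followed by Rasa1 (3.2 ± 0.185), Rasa3 (2.72 ± 0.684), Sos1 (1.72 ± 0.239), Nf1 (1.51 ± 0.236), Rasal2 (0.861 ± 0.136) and Rasa2 (0.544 ± 0.0237). Rasa1 and Rasa3, and likewise Sos1 and Nf1, were closer to each other there than the spread of their libraries. In the HC controls Rasa3 came second at 19.6 ± 0.241 CPM per kb, above Nras (17.3 ± 0.104), Hras (8.6 ± 0.84), Rasa1 (8.06 ± 0.0681), Nf1 (5.67 ± 0.138), Sos1 (4.3 ± 0.223), Rasal2 (3.21 ± 0.0511) and Rasa2 (2.46 ± 0.364). Hras and Rasa1 differed there by less than the spread of Hras. In KC the order began Grb2 (9.66 ± 1.63), Hras (8.87 ± 6.26), Nras (3.97 ± 1.43) and Rasa1 (1.93 ± 0.507), and the first 2 were not separated beyond the spread of Hras. Rasa2 was the lowest member in every group except HC, in which Rasal2 (2.53 ± 0.307) was below Rasa2 (3 ± 0.342) by more than the spread of either.

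**Figure D1:**
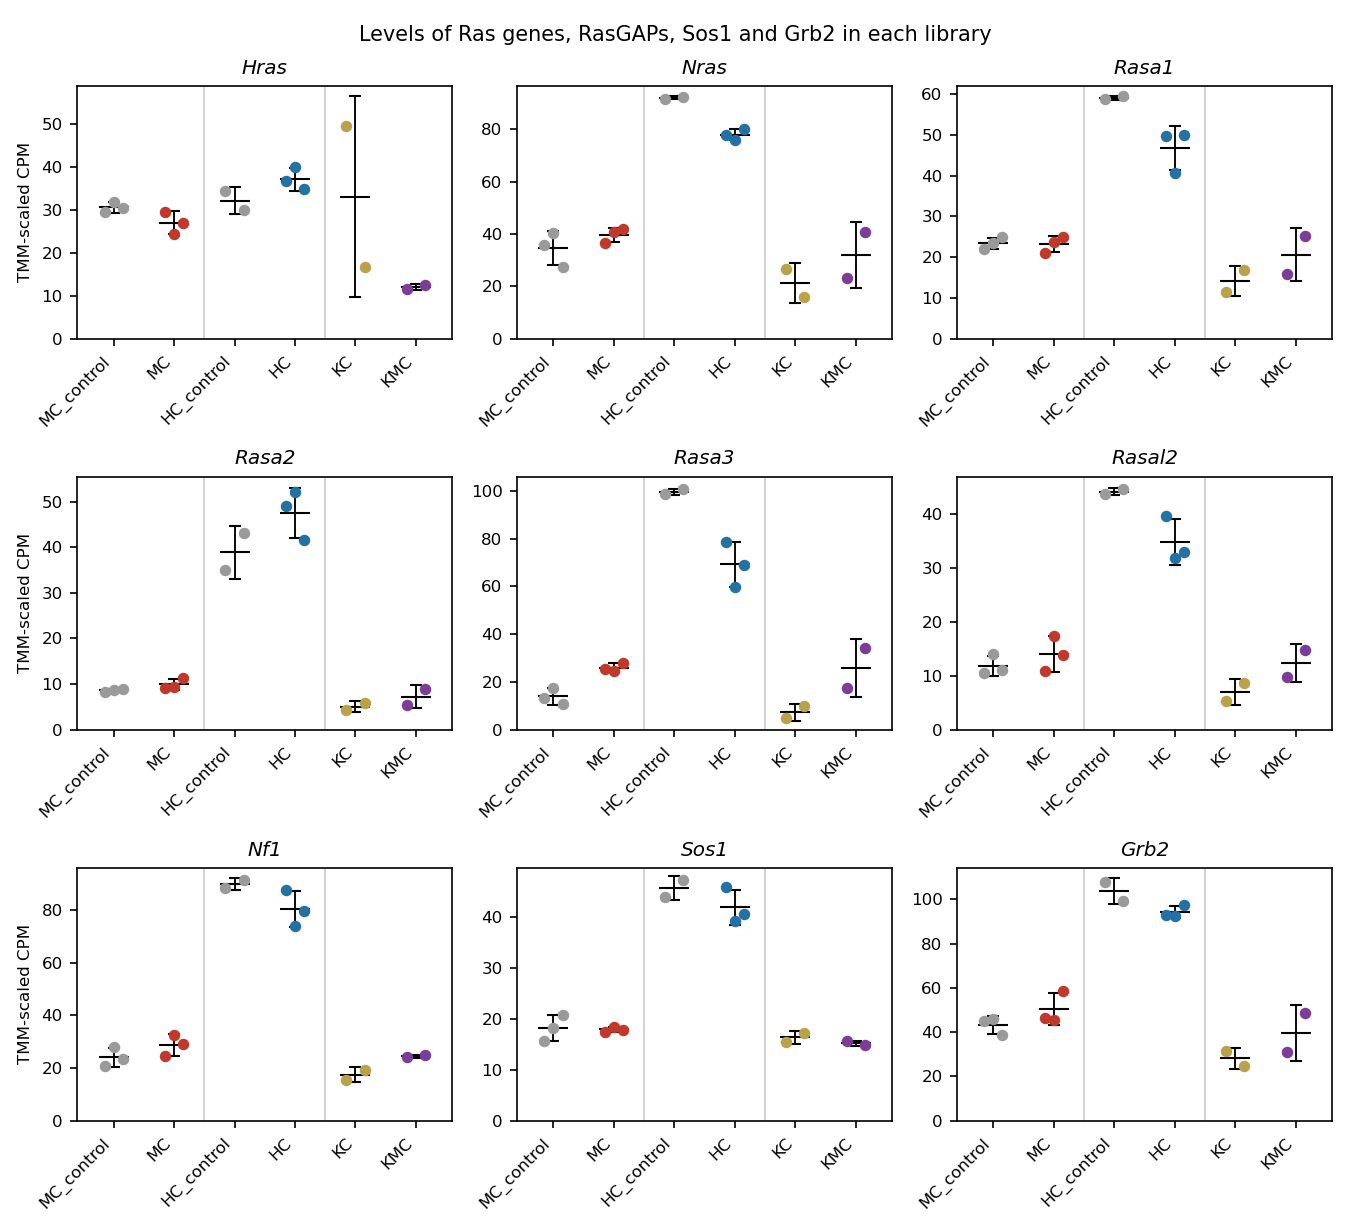
Level of each member (CPM after TMM scaling) in each of the 15 libraries, by group. Rasa3 is at 24.4 to 28 CPM in MC against 10.7 to 17.6 CPM in its controls, and at 59.9 to 78.6 CPM in HC against 98.8 to 101 CPM in its controls.

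Hras and Nras encode small GTPases of the same family. In MC, Hras was 29.6, 24.4 and 27 CPM against 29.5, 31.9 and 30.4 CPM in the controls, and Nras was 36.7, 40.6 and 41.9 CPM against 35.8, 40.3 and 27.5 CPM. For both genes the groups overlapped. The log2 fold change of Hras was -0.18 (standard error 0.11), with -0.11 without MC replicate 2. That of Nras was 0.2 (0.15), with 0.08 without MC control replicate 3 and 0.32 without MC control replicate 2. Library size alone gave 0.12 for Hras and moved the median of all genes from -0.02 to 0.29, so that Hras was positive under that scaling but below the median gene under both.

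In HC the Ras genes lay the other way. Hras was 36.6, 40 and 34.9 CPM against 34.3 and 29.9 CPM, with every HC library above both controls, and its log2 fold change was 0.21 (standard error 0.12), or 0.11 without HC control replicate 2. Nras was 77.7, 76.1 and 80.2 CPM against 91.7 and 92.5 CPM, with every HC library below both controls, at -0.24 (0.09). Hras accounted for 38.3 to 42.9 percent of the summed Hras and Nras transcripts per length in HC and 31.6 to 34.8 percent in the controls. In MC that share was 46.2 to 53.5 percent against 53.1 to 61.2 percent, with a narrow overlap.

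In KMC, Hras was 11.6 and 12.6 CPM against 49.6 and 16.6 CPM in KC, and KC replicate 1 stood apart from the other 3 libraries. The log2 fold change of Hras was -1.45 (standard error 0.51), and without KC replicate 1 it was -0.46, while without KC replicate 2 it was -2.04. Per total counts the groups overlapped, at 14.4 and 27.3 against 24.1 and 12.6 CPM, and library size alone gave a log2 fold change of 0.18 for Hras. That scaling moved the median of all genes from 0.03 to 1.47, so that Hras was below the median gene under both, and leaving the acinar genes out of the library size moved it to 0.76. Nras was 23.1 and 40.9 CPM against 26.6 and 15.8 CPM, an overlap, with a log2 fold change of 0.6 (0.42) that ranged from 0.15 without KMC replicate 2 to 1.01 without KC replicate 1. The Hras share of the Hras and Nras transcripts, which no scaling changes, was 30.6 to 41.7 percent in KMC and 60.0 to 72.7 percent in KC, without overlap. As levels, 30.9 percent of all genes were lower in KMC without overlap.

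Rasa3, a RasGAP with C2 domains and a pleckstrin homology domain, had a larger log2 fold change in size than any other member in each of the 3 experiments. It had 25.2, 24.4 and 28 CPM in MC and 13.3, 17.6 and 10.7 CPM in the MC controls. Each MC library was above each control, and the log2 fold change was 0.9 (standard error 0.19), higher than 92.9 percent of genes. In HC, Rasa3 had 78.6, 59.9 and 69 CPM against 98.8 and 101 CPM. Each HC library was below each control, and the log2 fold change was -0.53 (0.13). In KMC it had 17.3 and 34.4 CPM against 4.7 and 9.87 CPM in KC, again without overlap, with a log2 fold change of 1.82 (0.49). Without KMC replicate 2 that value was 1.25, and without KC replicate 2 it was 2.45.

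A list of leukocyte genes lay in the same direction as Rasa3 in each experiment. The summed level of Ptprc, Cd52, Laptm5 and Coro1a, of which Laptm5 was the most abundant and 0 lacked counts, was 184, 201 and 277 CPM in MC against 103, 157 and 54.7 CPM. It was 304, 198 and 267 CPM in HC against 581 and 350 CPM, and 141 and 335 CPM in KMC against 24.6 and 42.3 CPM in KC. In no experiment did the summed levels of the groups overlap. Of the 4 genes, 4 were higher in MC (3 without overlap), 4 were lower in HC and 4 were higher in KMC without overlap, with median log2 fold changes of 1.13, -0.88 and 2.83. Per count of these 4 genes, Rasa3 had 0.136, 0.121 and 0.101 counts in MC against 0.129, 0.112 and 0.196 in its controls, and 0.123 and 0.103 in KMC against 0.191 and 0.233 in KC. That ratio overlapped between MC and its controls and between HC (0.259, 0.302 and 0.258) and its controls (0.17 and 0.287), and it was lower in both KMC libraries than in both KC libraries. Fewer cells of a type and less RNA per cell cannot be told apart in bulk tissue, and the part of leukocytes in the values of Rasa3 was not tested.

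Lists of other cell types were read beside the members in the same way, and 1 gene of these lists, a B cell gene in HC, passed the edgeR quasi-likelihood test after Benjamini-Hochberg adjustment. The median log2 fold changes in MC, HC and KMC were 1.94, -0.8 and 2.53 for T cell genes, 3.8, -1.22 and 1.42 for B cell genes, and 0.34, -0.84 and 2.66 for myeloid genes. The B cell value in MC came largely from MC replicate 1, since the summed level of the 4 genes was 52.7, 10.9 and 2.37 CPM in MC and 1.82, 1.55 and 0.899 CPM in its controls. The medians were 0.71, -0.45 and 2.42 for fibroblast genes, 0.12, -0.41 and 0.45 for endothelial genes, and 0.05, 0.28 and 0.83 for ductal genes. MC control replicate 2 stood apart from the other MC controls in myeloid genes (1060 against 511 and 378 CPM) and fibroblast genes (2330 against 1150 and 951 CPM). In MC these summed levels were 730, 675 and 1010 CPM for myeloid genes and 1880, 2600 and 2790 CPM for fibroblast genes. Acinar genes had medians of -0.64, -0.12 and -2.01. Adipocyte genes had 3.67, -0.91 and -1.51, erythroid genes 0.75, 2.93 and -0.96, platelet genes 0.38, 1.04 and 0.56, and mast cell genes 0.23, 0.64 and -0.13. The summed level of adipocyte genes was 49.7 and 23.6 CPM in KMC against 30.7 and 145 CPM in KC, where replicate 2 stood apart. That of erythroid genes was 73, 793 and 668 CPM in HC against 59 and 76.8 CPM, with HC replicate 1 within its controls. That of mast cell genes was 120, 41.9 and 49.9 CPM in HC against 41.9 and 43.5 CPM, so that HC replicate 1 stood apart. Islet genes had -0.13, 0.6 and -0.92, neural and Schwann cell genes 0.01, 0.14 and 0.02, and genes of gut wall muscle 0.63, -0.1 and 0.86. The part of these cells in the values of Rasa3 and the other RasGAPs was not tested.

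Rasa1 encodes p120 RasGAP, which binds phosphorylated receptors through SH2 domains. It was 21, 23.6 and 25 CPM in MC and 22, 23.5 and 24.8 CPM in the controls. The groups overlapped over almost their whole range, and the log2 fold change was -0.01 (standard error 0.12). It was -0.07 without MC replicate 3 and -0.06 without MC control replicate 1, and positive without MC replicate 1 (0.06), without MC control replicate 3 (0.04), under library size alone (0.32) and with acinar genes left out of the library size (0.1). In HC, Rasa1 was 49.7, 40.6 and 49.9 CPM against 58.7 and 59.4 CPM, every library lower than both controls, at -0.34 (0.12). In KMC it was 15.9 and 25.2 CPM against 11.5 and 16.8 CPM, an overlap, at 0.54 (0.37), with a range from 0.19 without KMC replicate 2 to 0.83 without KC replicate 2.

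Nf1 encodes neurofibromin, a large RasGAP, and Rasal2 encodes a RasGAP of the SynGAP family. Nf1 was 24.4, 32.7 and 29.2 CPM in MC against 20.6, 28 and 23.4 CPM, with overlapping groups and a log2 fold change of 0.26 (standard error 0.16). Without MC replicate 2, or without MC control replicate 1, the value of Nf1 was 0.16. In HC, Nf1 was 87.5, 73.9 and 79.8 CPM against 88.3 and 91.4 CPM, lower in every library by a narrow gap, at -0.16 (0.1). Leaving out HC replicate 2 made it -0.1. In KMC, Nf1 was 24.1 and 24.8 CPM against 15.6 and 19.4 CPM, without overlap, at 0.48 (0.31). Without KC replicate 1 that value was 0.32.

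Rasal2 was 10.8, 17.3 and 13.9 CPM in MC against 10.5, 14 and 11.1 CPM, an overlap, at 0.24 (standard error 0.2). Without MC replicate 2 it was 0.06, without MC replicate 1 it was 0.41, and without MC control replicate 2 it was 0.38. In HC, Rasal2 was 39.6, 31.8 and 33 CPM against 43.6 and 44.6 CPM, every library lower, at -0.34 (0.12). In KMC, Rasal2 was 9.83 and 14.8 CPM against 5.31 and 8.63 CPM, without overlap, at 0.82 (0.39), with 0.5 without KC replicate 1 or without KMC replicate 2. Rasal2 shared 244 exon bases, 1.78 percent of its exons, with the pseudogene 2810025M15Rik on the opposite strand, and whether counting was strand-specific is not given with the files.

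Rasa2, a close relative of Rasa3, was the member RasGAP with a positive log2 fold change in HC. It was 49.1, 52 and 41.5 CPM in HC against 34.9 and 43 CPM, an overlap, at 0.29 (standard error 0.14), whereas the other 4 member RasGAPs were lower than both controls in every HC library, as were 16.1 percent of all genes. Without HC control replicate 1 the value of Rasa2 was 0.14, and without HC control replicate 2 it was 0.45. In MC, Rasa2 was 9.16, 9.33 and 11.3 CPM against 8.2, 8.78 and 8.9 CPM, higher in every library, at 0.2 (0.14), with 0.1 without MC replicate 3. In KMC, Rasa2 was 5.43 and 9.01 CPM against 4.22 and 5.88 CPM, an overlap, at 0.51 (0.41), with a range from 0.11 without KMC replicate 2 to 0.82 without KMC replicate 1.

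As shares of the transcripts of the 5 member RasGAPs, counted per length, Rasa3 took 40.2 to 46.1 percent in MC and 25.3 to 34.6 percent in the controls. It took 41.6 to 50.4 percent in KMC and 22.3 to 30 percent in KC, but 42.7 to 45.7 percent in HC and 49.9 to 50.6 percent in its controls. None of these pairs overlapped, and shares within a library are not changed by the scaling. As levels, 10.9 percent of all genes were higher in MC without overlap, 34.4 percent higher in KMC and 16.1 percent lower in HC. No such rate was counted for shares. The 5 shares of a library have a fixed sum, so that a larger share of Rasa3 leaves less for the others. The share of Rasa1 was 26.8 to 27.4 percent in MC against 32.1 to 40.6 percent and 25.7 to 26.7 percent in KMC against 35.5 to 38.1 percent. In HC, Rasa1 took 20.1 to 22.4 percent against 20.5 to 20.9 percent, an overlap, and Rasa2 took 8.6 to 11.9 percent against 5.73 to 6.85 percent. The summed level of the 5 RasGAPs was 10.7 to 12.5 CPM per kb in MC against 8.19 to 10, 27.5 to 33.7 in HC against 38.4 to 39.6, and 8.15 to 13.4 in KMC against 4.13 to 6.45.

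**Figure D2:**
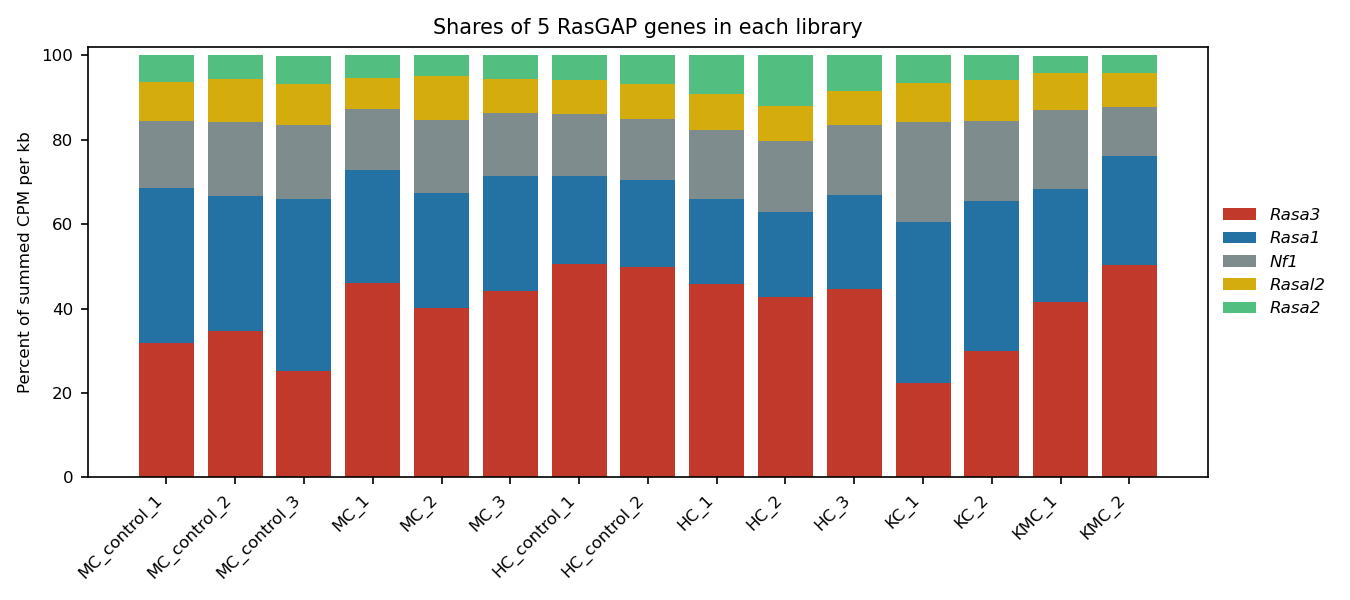
Share of each member RasGAP (percent of their summed CPM per kb) in each library, by group. Rasa3 takes 40.2 to 46.1 percent in MC and 25.3 to 34.6 percent in its controls, and 42.7 to 45.7 percent in HC and 49.9 to 50.6 percent in its controls.

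Sos1, the exchange factor, loads Ras with GTP. It was 17.4, 18.3 and 17.8 CPM in MC against 15.7, 18.2 and 20.8 CPM, 45.8, 39.2 and 40.6 CPM in HC against 43.9 and 47.3 CPM, and 15.6 and 14.9 CPM in KMC against 15.5 and 17.3 CPM. All 3 pairs of groups overlapped. The log2 fold changes of Sos1 were -0.03 (standard error 0.13), -0.12 (0.11) and -0.11 (0.3). In KMC, library size alone gave 1.31 and leaving acinar genes out of the library size gave 0.61, and the value ran from -0.2 without KC replicate 1 to -0.03 without KC replicate 2. In MC the value of Sos1 was 0.31 under library size alone, and it ran from -0.13 without MC control replicate 1 to 0.09 without MC control replicate 3. In HC it ran from -0.19 without HC replicate 1 to -0.07 without HC replicate 2 or HC control replicate 2.

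Grb2, the adaptor that holds Sos1, was 46.5, 45.7 and 58.7 CPM in MC against 45.1, 46 and 38.7 CPM, an overlap, at 0.22 (standard error 0.14). Without MC replicate 3 the value of Grb2 was 0.09. In HC, Grb2 was 92.8, 92.3 and 97.4 CPM against 108 and 99.5 CPM, lower in every library, at -0.14 (0.09), and -0.08 without HC control replicate 1. In KMC, Grb2 was 30.8 and 48.5 CPM against 31.5 and 24.8 CPM, an overlap, at 0.49 (0.37), with 0.15 without KMC replicate 2 and 0.78 without KMC replicate 1.

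In the test of MC against its controls, 6 members had a positive and 3 a negative log2 fold change. With edgeR's quasi-likelihood test and Benjamini-Hochberg adjustment (adjusted p at most 0.05), 0 of 9 members passed, and 0 percent of all 13902 genes passed. At an unadjusted p under 0.05 there were 1 member and 2038 genes, and DESeq2 called 1 member, Rasa3, and 634 genes. Rasa2 and Rasa3 were higher in every MC library than in every control, as were 10.9 percent of all genes, and 0 members were lower in this way, against 9.89 percent of genes. By edgeR's quasi-likelihood test after Benjamini-Hochberg adjustment Rasa3 had an adjusted p of 0.108 (DESeq2 0.00223), Rasa2 0.496, Hras 0.451, Nras 0.524, Rasa1 0.965, Rasal2 0.562, Nf1 0.446, Sos1 0.926 and Grb2 0.455. Without MC control replicate 2, Rasa3 passed the edgeR quasi-likelihood test after Benjamini-Hochberg adjustment with a log2 fold change of 1.1 and an adjusted p of 0.0259, and 975 genes passed, and without MC replicate 1 the number was 178. The p-values measure the spread between pooled libraries and not between single mice.

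In HC, 2 members (Hras and Rasa2) had a positive and 7 a negative log2 fold change. Nras, Rasa1, Rasa3, Rasal2, Nf1 and Grb2 were lower in every HC library than in both controls, as were 16.1 percent of all genes, and Hras was higher, as were 17.5 percent. With edgeR's quasi-likelihood test and Benjamini-Hochberg adjustment, 0 of 9 members passed, and 0.739 percent of all genes (136 of 18407) passed. At an unadjusted p under 0.05 there were 4 members and 2919 genes, and DESeq2 called 1 member, Rasa3 (log2 fold change -0.54, adjusted p 0.0274), and 1183 genes. By edgeR's quasi-likelihood test after Benjamini-Hochberg adjustment the adjusted p was 0.142 for Rasa3, 0.254 for Rasa1, 0.256 for Nras, 0.261 for Rasal2, 0.398 for Rasa2, 0.445 for Hras, 0.515 for Nf1, 0.527 for Grb2 and 0.645 for Sos1. The count of genes lay between 0 and 515 when 1 library was left out: 515 without HC replicate 1, 3 without HC replicate 3, and 0 without HC replicate 2, HC control replicate 1 or HC control replicate 2.

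In KMC against KC, 7 members had a positive and 2 (Hras and Sos1) a negative log2 fold change. Rasa3, Rasal2 and Nf1 were higher in both KMC libraries than in both KC libraries, as were 34.4 percent of all genes, and Hras was lower, as were 30.9 percent. With edgeR's quasi-likelihood test and Benjamini-Hochberg adjustment, 0 of 9 members passed, and 0.0191 percent of all genes (3 of 15733) passed. These 3 genes, named after their values were seen, were Xist, Ddx3y and Kdm5d, which follow the sex of the pooled mice. At an unadjusted p under 0.05 there were 2 members and 4027 genes, and DESeq2 called 2 members, Rasa3 (log2 fold change 1.84, adjusted p 0.00768) and Hras (-1.42, 0.0497), and 2130 genes. By edgeR's quasi-likelihood test after Benjamini-Hochberg adjustment the adjusted p was 0.105 for Rasa3, 0.149 for Hras, 0.232 for Rasal2, 0.35 for Nf1, 0.38 for Rasa1, 0.388 for Nras, 0.415 for Grb2, 0.452 for Rasa2 and 0.835 for Sos1. Without KMC replicate 1, Rasa3 passed the edgeR quasi-likelihood test after Benjamini-Hochberg adjustment at a log2 fold change of 2.21 and an adjusted p of 0.000736, and 2312 genes passed. The number of genes was 76 without KMC replicate 2, and 0 without KC replicate 1 or without KC replicate 2. In 1 fit with the HC table, 4026 genes and 2 members (Rasa3 and Hras) passed. Library size alone gave 4715 genes and 7 members, and leaving acinar genes out of it gave 2569 genes and 1 member. With 2 libraries on each side, and with age and sex differing between the groups, these values describe these libraries alone.

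**Figure D3:**
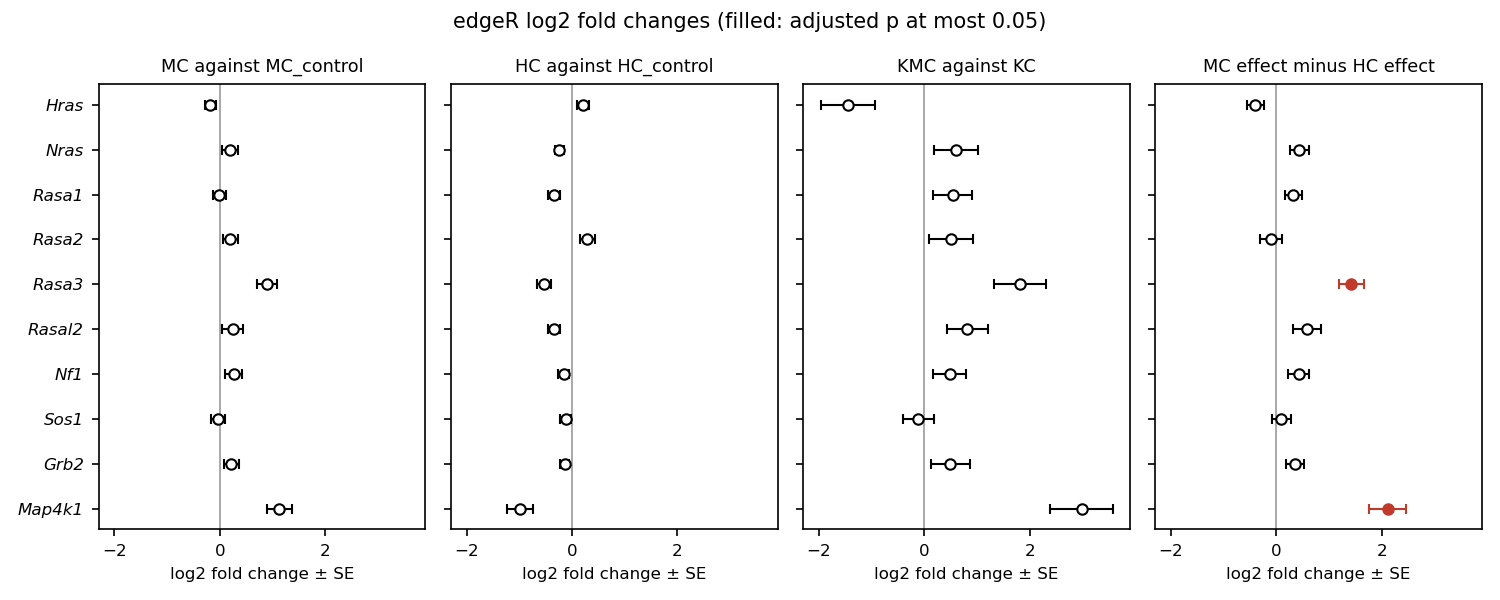
Log2 fold change of each member, with its standard error, in MC, HC and KMC against their own controls. Rasa3 is at 0.9, -0.53 and 1.82, and Sos1 is at -0.03, -0.12 and -0.11.

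The effect of M46 (MC against its controls) minus the effect in HC was tested gene by gene, and Rasa3 was the member that passed. For Rasa3 the difference was 1.42 on the log2 scale (standard error 0.24), from 0.9 in MC and -0.53 in HC. The other members lay between -0.4 (Hras) and 0.58 (Rasal2), with 0.43 for Nras, 0.42 for Nf1, 0.35 for Grb2, 0.32 for Rasa1, 0.09 for Sos1 and -0.1 for Rasa2. Leaving out 1 library gave -0.26 (HC control replicate 2) to 0.05 (HC control replicate 1) for Rasa2, -0.01 (MC control replicate 1) to 0.2 (MC control replicate 3) for Sos1, and 0.22 without MC replicate 3 for Grb2. With edgeR's quasi-likelihood test and Benjamini-Hochberg adjustment, 1 of 9 members passed, and 2.49 percent of all genes (371 of 14884) passed. By that test, edgeR's quasi-likelihood test after Benjamini-Hochberg adjustment, Rasa3 had an unadjusted p of 0.000107 and an adjusted p of 0.0262, and Map4k1, at 2.11, also had 0.0262. At an unadjusted p under 0.05 there were 4 members, Rasa3, Hras (0.0319), Nras (0.0387) and Rasal2 (0.0497), and 3090 genes. DESeq2 gave 1.38 for Rasa3 with an adjusted p of 1.85e-05. By the labels, age, experiment, library kit and kind of control (Cre mice for MC, wild-type mice for HC) differed together with the transgene. Their parts in this difference cannot be told apart. HC replicate 3 was male among female libraries, and the sex of the MC mice could not be read.

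The call of Rasa3 rested on most single libraries, although its difference stayed between 1.27 and 1.62 whichever library was left out. By edgeR's quasi-likelihood test after Benjamini-Hochberg adjustment, its adjusted p exceeded 0.05 without MC replicate 2 (1.46, 0.0635), MC replicate 3 (1.36, 0.0542), MC control replicate 1 (1.38, 0.0868), HC replicate 2 (1.33, 0.0808), HC replicate 3 (1.41, 0.0623), HC control replicate 1 (1.43, 0.123) or HC control replicate 2 (1.4, 0.0505). It stayed at or under 0.05 by the same edgeR quasi-likelihood test after Benjamini-Hochberg adjustment without MC replicate 1 (1.43, 0.0201), MC control replicate 2 (1.62, 0.00484), MC control replicate 3 (1.27, 0.0401) or HC replicate 1 (1.52, 0.0263). The call of Rasa3 was also lost under library size alone, with a difference of 1.74, an adjusted p of 0.091 by the edgeR quasi-likelihood test after Benjamini-Hochberg adjustment, and a median of all genes of 0.34. With acinar genes left out of the library size it was lost as well, at 1.56, with 0.0573 by that test and a median of 0.14. Map4k1 kept a difference of 1.89 to 2.3 whichever library was left out, and its call was lost under library size alone (2.42) and without MC replicate 2 (2.19), MC control replicate 1 (2.19), HC replicate 2 (1.95), HC replicate 3 (2.23) or HC control replicate 1 (1.89). The count of 371 genes was 0 without HC replicate 2 or HC control replicate 1, 4 without HC replicate 3, 8 without MC replicate 2 or MC control replicate 1, 85 without MC replicate 3, 100 without MC control replicate 3, 184 without HC control replicate 2 and 2105 without MC control replicate 2.

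A wider list of 57 Ras pathway genes placed the members among genes of like role. Of all genes, 46.9 percent were positive in MC, 49.8 percent in HC and 51.3 percent in KMC. In MC, 37 of the 57 were positive and 19 negative, 0 passed edgeR's quasi-likelihood test after Benjamini-Hochberg adjustment, 9 positive and 2 negative genes had an unadjusted p under 0.05 (2038 of all 13902 genes did), and DESeq2 called 6 (634 of all genes). By role, with the members counted in, 8 of 10 RasGAPs were positive (median 0.22), as were 6 of 8 exchange factors (median 0.48). Of the Spred and Dok genes, listed together as RasGAP partners, 6 of 6 were positive (median 0.68, 1 of them at an unadjusted p under 0.05 in edgeR). In HC, 23 were positive and 33 negative, 0 passed in edgeR, 8 and 6 had an unadjusted p under 0.05 (2919 of all 18407 genes), DESeq2 called 2 (1183 of all genes), and 2 of 10 RasGAPs were positive (median -0.25), Rasa2 and Dab2ip. Dab2ip, at 0.35 (standard error 0.1), was higher in every HC library than in both controls. Of the Spred and Dok genes 1 of 6 was positive in HC (median -0.28), and of the exchange factors 3 of 8 (median -0.07). In KMC, 39 were positive and 18 negative, 0 passed in edgeR, 18 and 0 had an unadjusted p under 0.05 (4027 of all 15733 genes), DESeq2 called 13 (2130 of all genes), and 10 of 10 RasGAPs were positive (median 0.88), 8 of them without overlap, as were 34.4 percent of all genes. Genes for the processing and turnover of Ras proteins were negative in KMC in 8 of 8 cases (median -0.3), with 0 at an unadjusted p under 0.05 and 0 called by edgeR or DESeq2. In MC 3 of these 8 were positive (median -0.1) and in HC 5 (median 0.11). Spred and Dok genes were positive in KMC in 6 of 6 cases (median 1.73), and effectors other than kinases in 8 of 8 (median 1.16). Library size alone turned Lztr1, a gene of Ras turnover, from -0.59 to 0.83, and it also turned the Ras gene Rras2 from -0.84 to 0.67 and Map2k2 from -0.96 to 0.57, while the median of all genes went from 0.03 to 1.47, above all 3.

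In the difference between MC and HC, 4 of the 57 passed edgeR's quasi-likelihood test after Benjamini-Hochberg adjustment, against 2.49 percent of all genes, and DESeq2 called 10 of them and 1437 of all genes. The RasGAP Rasa4 differed by 1.49 (adjusted p 0.033 by edgeR's quasi-likelihood test after Benjamini-Hochberg adjustment), from 7.47, 8.65 and 9.68 CPM in MC against 4.16, 5.72 and 3.5 CPM and 14.6, 10.7 and 14 CPM in HC against 20.8 and 17.7 CPM. Rasa4 was thus higher than its controls in every MC library and lower in every HC library, as Rasa3 was. The exchange factor Rasgrp1 differed by 3.05 (0.028 by the edgeR quasi-likelihood test after Benjamini-Hochberg adjustment), from 5.48, 3.71 and 3.48 CPM in MC against 1.09, 1.19 and 0.404 CPM and 11.3, 10.2 and 16.5 CPM in HC against 30.2 and 15.9 CPM, with an overlap in HC. Rasgrp3 differed by 1.39 (0.033), and Fnta, a subunit of the enzymes that attach lipids to Ras, by -0.6 (0.0397), both by the edgeR quasi-likelihood test after Benjamini-Hochberg adjustment. The calls of these 4 genes were lost when single libraries were left out: without HC control replicate 1 the differences were 1.38 for Rasa4, 2.52 for Rasgrp1, 1.08 for Rasgrp3 and -0.58 for Fnta. The leukocyte and T cell lists had medians of 1.13 and 1.94 in MC and -0.88 and -0.8 in HC. The B cell list had 3.8 and -1.22, with 52.7 CPM in MC replicate 1 and 2.37 CPM in MC replicate 3, and the part of these cells in the values of Rasa4, Rasgrp1 and Rasgrp3 was not tested.

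Across the 15 libraries, with each table centred on its own mean, members also varied together. Differences between the groups of a table stay in these correlations, and none over all pairs of genes is given beside them. Among the KC and KMC libraries, Nras, Grb2, Rasa3, Rasal2 and Nf1 were each highest in KMC replicate 2. Nras and Grb2 had a correlation of 0.925 (n = 15), Rasal2 and Nf1 0.917, Rasa3 and Rasal2 0.872, Rasa1 and Rasal2 0.86, and Rasa3 and Nf1 0.836. Hras ran opposite to the 5 member RasGAPs over the 15 libraries, with -0.78 for Rasa3, -0.778 for Rasal2, -0.731 for Nf1, -0.72 for Rasa1 and -0.53 for Rasa2. Hras and Nras had -0.114. Hras varied most in the KC and KMC libraries, where KC replicate 1 stood apart (49.6 against 16.6, 11.6 and 12.6 CPM). It spanned 24.4 to 31.9 CPM in MC and its controls and 29.9 to 40 CPM in HC and its controls. In HC, Hras and Rasa2 both had positive log2 fold changes (0.21 and 0.29). Sos1 had -0.413 with Nras and -0.408 with Grb2. Among 8710 genes, those most like Rasa1 were Rcn2 (0.951), Nup205 (0.947), Hif1a (0.943), Snx9 (0.939) and Ccdc50 (0.938), over the same 15 libraries. Hras was most like Znhit1 (0.988), Uqcc2 (0.983), Scand1 (0.982), Elob (0.981) and D8Ertd738e (0.978), and Nras was most like Hmgn1 (0.962), Calu (0.947), Cybc1 (0.936), Arpc4 (0.933) and Tpm4 (0.932), each with n = 15. The correlations of Hras include KC replicate 1, which stood apart at 49.6 CPM after TMM scaling, and none is given without that library. Per total counts it did not stand apart, at 24.1 CPM against 12.6 in KC replicate 2 and 14.4 and 27.3 in KMC.

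On GRCm38, Rasa3 lies on chromosome 8 from 13566948 to 13677603 on the minus strand, and Hras on chromosome 7 from 141189105 to 141194005, also on the minus strand. Neither gene overlaps another annotated gene. Rasa1 shares 12 exon bases with Ccnh on the opposite strand, and the introns of Nf1 hold Omg, Evi2, Evi2a and Evi2b with 0 exon bases shared. The promoters of Rasa3, Hras and Rasal2 are shown because Rasa3 was the member called in the difference, Hras lay opposite to it, and Rasal2 followed Rasa3 across libraries but held 0 of the motifs searched. Each sequence runs from 250 bases before to 50 bases after the start of a RefSeq transcript (GRCm38.p6), is written 5' to 3' on the minus strand of its gene, and covers chr8:13677538-13677837 for Rasa3, chr7:141193955-141194254 for Hras and chr1:157412546-157412845 for Rasal2. Capitals mark matches on either strand to the GC box (GGGCGG, in 35.7 percent of 32851 promoters), the CCAAT box (CCAAT, 37.4 percent), the ETS motif (CCGGAAG, 8.86 percent), the AP-1 motif (TGACTCA, 5.2 percent), the E-box (CACGTG, 7.15 percent) and the TATA motif (TATAAA, 13.6 percent). Rasa3 held 3 CCAAT boxes and 1 GC box, and Hras 3 GC boxes and 1 CCAAT box. Rasa3 had 26 CpG, Hras 34 and Rasal2 31, where the median promoter had 7. A match describes the sequence, and binding was not measured.
Rasa3: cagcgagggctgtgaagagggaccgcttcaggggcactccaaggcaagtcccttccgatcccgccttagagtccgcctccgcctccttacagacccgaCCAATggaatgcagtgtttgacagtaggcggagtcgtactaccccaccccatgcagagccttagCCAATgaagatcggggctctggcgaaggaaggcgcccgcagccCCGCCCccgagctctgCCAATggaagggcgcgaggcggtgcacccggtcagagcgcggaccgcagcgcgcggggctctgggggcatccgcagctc
Hras: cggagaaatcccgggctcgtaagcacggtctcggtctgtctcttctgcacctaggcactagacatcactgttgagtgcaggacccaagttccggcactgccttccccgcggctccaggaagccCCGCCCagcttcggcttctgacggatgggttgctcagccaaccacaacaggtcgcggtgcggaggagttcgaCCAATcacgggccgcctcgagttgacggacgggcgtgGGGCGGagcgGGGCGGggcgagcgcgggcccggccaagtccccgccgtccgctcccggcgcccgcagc
Rasal2: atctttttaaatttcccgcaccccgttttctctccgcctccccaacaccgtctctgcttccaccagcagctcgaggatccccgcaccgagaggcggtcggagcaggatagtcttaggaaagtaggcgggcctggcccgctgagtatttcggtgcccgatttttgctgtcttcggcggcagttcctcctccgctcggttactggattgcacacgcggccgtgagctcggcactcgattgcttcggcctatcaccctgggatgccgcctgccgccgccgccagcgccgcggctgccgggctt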

How the data were processed

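RNA sequencing of mouse pancreas was read from 15 libraries, each of RNA pooled from 3 mice. The authors aligned reads with STAR to GRCm38 and the deposited files hold raw counts per gene, in 1 table per experiment. Their notes name bcl2fastq 2.17.14, STAR 2.6.1a, HTSeq 0.6.1 and DESeq2. The authors' fold changes and p-values for MC were not used. The table with MC held 15175 genes and the others 49585. Libraries held 29766575 to 38745907 counts, and a count of 3 equals 0.0357 to 0.204 CPM.

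Each table was filtered with filterByExpr, scaled with TMM and fitted with edgeR 4.0.16 (glmQLFit, glmQLFTest) in R 4.3.3, and a gene was called when its p, adjusted after Benjamini and Hochberg, was 0.05 or less. The difference between the MC and HC effects was fitted on the genes of both tables. Groups were compared as labelled, each with its own control. Groups were said not to overlap when every library of one lay above every library of the other. Standard errors were the size of the log2 fold change over the root of its F statistic. CPM per kb used the union of GENCODE vM21 exons. Alternatives were DESeq2 1.42.0, the DESeq2 size factors in edgeR, plain library sizes with and without acinar genes, no filter, a replicate block, 1 fit of the HC, KC and KMC tables, an added log2 fold change of at least 1, and each library left out in turn. The code was tested on simulated data.

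Members and lists were chosen with earlier results of these data known. Named genes were the members, Map4k1, and from 57 other Ras pathway genes any called gene, the smallest p in each role, and the 3 highest and 3 lowest fold changes with a mean of at least 1 CPM and no overlap, of which the text gives those its comparisons need. Likeness was Pearson r of log2 (CPM + 0.5) among genes with a mean of at least 5 CPM in each table, and gave the 5 genes most like Rasa1, Hras and Nras. Marker lists covered acinar, ductal, leukocyte, T, B, myeloid, mast, fibroblast, endothelial, platelet, erythroid, adipocyte, neural, islet and muscle genes and sex genes.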

Additional observations from a re-analysis of the deposited data

Results flagged for a closer look

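Rasa3 was flagged because its effect differed between MC and HC, by 1.42 on the log2 scale, in a test of the difference itself. Its call was lost without any 1 of several libraries, under library size alone and with acinar genes left out of the library size. The same test, edgeR's quasi-likelihood test after Benjamini-Hochberg adjustment, flagged Map4k1 at 2.11, where the libraries labelled HC were lower than their controls, and its call was lost without any 1 of 5 libraries. It also flagged Rasa4 at 1.49, Rasgrp1 at 3.05, Rasgrp3 at 1.39 and Fnta at -0.6, and these calls were lost as well when single libraries were left out. The leukocyte and T cell lists had medians of 1.13 and 1.94 in MC and -0.88 and -0.8 in HC. The B cell list had 3.8 and -1.22, with 52.7 CPM in MC replicate 1 and 2.37 CPM in MC replicate 3, and the part of these cells was not tested. By the labels, experiment, age, library kit and kind of control (Cre or wild-type mice) differed together with the transgene. Their parts cannot be told apart, and the sex of the MC mice could not be read.

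Rasgrf1 was flagged because it was lower than its controls in every MC library (1.59, 1.5 and 1.58 against 1.65, 2.86 and 2.16 CPM) and higher in every KMC library (1.89 and 2.18 against 1.36 and 0.774 CPM). Its log2 fold change was -0.51 in MC and 0.95 in KMC, and the difference was not tested. In HC, Rasgrf1 was 48, 59.7 and 45.9 CPM against 29.6 and 38.4 CPM, higher in every library, with a log2 fold change of 0.59. Its tested difference between MC and HC was -1.12, with an adjusted p of 0.0726 by the edgeR quasi-likelihood test after Benjamini-Hochberg adjustment.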

How the results depend on the processing

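The number of genes called was 0 in MC, 136 in HC, 3 in KMC and 371 in the difference. With DESeq2 it was 634, 1183, 2130 and 1437. With library size alone it was 1 in MC, 4715 in KMC (4695 of them up) and 98 in the difference (93 up). With acinar genes left out of the library size it was 52 in HC (41 up), 2569 in KMC (2537 up) and 140 in the difference (108 up). Without the filter it was 679 in HC (415 up) and 9 in KMC (3 up). In 1 fit of the HC, KC and KMC tables it was 1 in HC and 4026 in KMC (2481 up). Leaving out each library in turn gave 0 to 975 in MC, 0 to 515 in HC, 0 to 2312 in KMC and 0 to 2105 in the difference. A group left with 1 library was assumed to vary like the others. The cause was not tested.

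Members called were 0 in MC, HC and KMC and 1 in the difference. DESeq2 called 1 in MC, 1 in HC and 2 in KMC. Library size alone called 7 in KMC and 0 in the difference, and leaving out acinar genes 1 in KMC and 0 in the difference. The fit of several tables called 2 in KMC. Leaving out each library gave 0 to 1 in MC, in KMC and in the difference, and 0 in HC. The cause was not tested.

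With the replicate block, which takes libraries of the same number as pairs, 468 genes were called in HC (254 up), 2464 in KMC (1663 up) and 0 in MC, and members called were 2 in KMC and 0 in MC and HC. The log2 fold change in KMC with the replicate block was 1.84 for Rasa3 and -1.25 for Hras. Correlations between libraries of the same number were 0.0762, 0.313 and -0.347 in MC, 0.214 and 0.202 in HC and 0.101 in KMC, and the labels do not say that the numbers mark pairs.

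Signs turned as follows, for genes not past the threshold. With library size alone, Hras was 0.12, Rasa1 0.32, Sos1 0.31 and Frs2 0.17 in MC. In KMC the same setting gave Hras 0.18, Sos1 1.31, Rras2 0.67, Lztr1 0.83 and Map2k2 0.57, and in the difference Rasa2 0.3. With acinar genes left out, Rasa1 was 0.1 and Sos1 0.09 in MC, Sos1 0.61 and Lztr1 0.14 in KMC, and Rasa2 0.09 in the difference. Leaving out each library gave -0.07 to 0.06 for Rasa1 and -0.13 to 0.09 for Sos1 in MC, and -0.26 to 0.05 for Rasa2 and -0.01 to 0.2 for Sos1 in the difference. The cause was not tested.

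Of the other values of members, counted over settings, 98 in MC, 107 in HC, 81 in KMC and 131 in the difference kept their direction and side of the threshold. Another 2 in MC, 1 in HC and 15 in KMC kept direction and came past the threshold, and 9 in the difference kept direction and no longer passed. For the other named genes 130 in MC, 139 in HC, 69 in KMC and 110 in the difference were kept. Another 13, 5, 48 and 10 came past the threshold, and 40 in the difference no longer passed. Rasa2 in KC rested on 62 and 152 counts, the lowest of any member.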
